A study of Homo sapiens with 12 samples.

Results

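The AP-1 genes FOS, FOSB, FOSL1, FOSL2, JUN, JUNB and JUND were followed through RNA sequencing of 4 human cancer cell lines. These 7 genes were taken by symbol from the 57187 genes of the count table. All 7 passed the filter on low counts, which left 17211 genes for testing. The breast cancer lines were MDA-MB-231 and HCC1954 and the ovarian cancer lines were OVCAR8 and SKOV3. Every line was sequenced under 3 conditions, as controls (EV), as cells that stably carried SIVA-WT and as cells that stably carried SIVA-D160N, a variant of the SIVA protein with 1 amino acid exchanged. The sample labels call the controls parental and give them no treatment, while the study's methods name both parental cells and an empty vector (EV), so whether transfection and selection moved with SIVA cannot be told apart from SIVA itself. The transfectants were pools of cells selected with hygromycin, and a CMV promoter drove the SIVA vectors. With 1 library per line and condition, a difference within a line had no replicate check, and replication came from the 4 lines (n = 4 per condition).

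AP-1 is a dimer of basic leucine zipper proteins. JUN, JUNB and JUND can pair among themselves or with FOS, FOSB, FOSL1 (Fra-1) and FOSL2 (Fra-2), while the FOS proteins need a JUN partner to bind DNA. FOS and FOSB are classical immediate-early genes, with transcripts that appear within minutes of a stimulus such as serum and decay quickly. FOSL1 is transcribed later and is known for high levels in mesenchymal and invasive carcinoma cells, and JUND is made in many resting cells.

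The genes lie on chromosomes 1 (JUN), 2 (FOSL2), 11 (FOSL1), 14 (FOS) and 19 (JUNB, JUND and FOSB) of GRCh38. FOS runs from position 75278828 to 75282230 of chromosome 14, and FOSB from 45467996 to 45475179 of chromosome 19. FOSL1 runs from 65892049 to 65900545 of chromosome 11, and FOSL2 from 28392858 to 28417317 of chromosome 2. JUN runs from 58780791 to 58784047 of chromosome 1, JUNB from 12791486 to 12793315 of chromosome 19, and JUND from 18279694 to 18281622 of chromosome 19.

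Promoters were searched because AP-1 and the related CREB and ATF proteins bind short palindromic motifs, and several AP-1 genes carry such a motif near their own start. RefSeq (GRCh38.p14) gave a promoter for 6 of the 7 genes, all but FOSL1, as the 250 bases before and the 50 bases after the start. The 6-letter core TGACGT of the cAMP response element stood, on either strand, in the promoters of FOS, FOSB, FOSL2 and JUND, and in 7.98% of all 35116 promoters of that length. JUND alone among the members held the full TGACGTCA, which contains that core and stood in 1.85% of all promoters. JUN alone held TGACATCA, a form of the AP-1 site known from the JUN promoter, which stood in 2.61%. The AP-1 site TGACTCA stood in FOSL2 and in 4.95% of all promoters. In FOSL2 that site lies after the start, inside the transcript, and it is not shown. A further, separate TGACGT core in JUND, on the opposite strand from base 87 before the start, is also not shown. The windows below show the other motifs in capitals, on the strand of the gene and upstream of its start, outside the transcript. A match describes the letters and was not tested as a binding site.
FOS (chr14:75278752-75278781, plus strand, motif from base 64 before the start): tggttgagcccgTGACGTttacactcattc
FOSB (chr19:45467924-45467953, plus strand, motif from base 60 before the start): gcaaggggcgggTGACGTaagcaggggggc
FOSL2 (chr2:28392780-28392809, plus strand, motif from base 66 before the start): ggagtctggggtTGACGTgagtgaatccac
JUN (chr1:58784096-58784125, minus strand, motif from base 67 before the start): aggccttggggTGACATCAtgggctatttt
JUND (chr19:18281804-18281833, minus strand, motif from base 200 before the start): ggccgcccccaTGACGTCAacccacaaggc

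Total counts ran from 35791455 to 45890398, and none of the 66 library pairs had identical values. SIVA1, the gene carried by the vectors, was higher in both transfectants than in EV in all 4 lines. In EV, HCC1954 had 0 counts of it, MDA-MB-231 28.1 CPM, SKOV3 52.6 CPM and OVCAR8 66.3 CPM, against 26.5 to 177 CPM in the transfectants. Among genes that mark the lines, ERBB2, the HER2 receptor, was highest in HCC1954 and SKOV3. EPCAM was low in MDA-MB-231, at 1.86 to 2.31 CPM, and lower still in SKOV3, at 0.36 to 0.77 CPM. Of the genes that mark other cell types, PTPRC of leukocytes had 0 counts outside HCC1954, where it had at most 27. Others were present: COL1A1, a collagen gene, reached 504 CPM in SKOV3 and 340 CPM in OVCAR8, and PECAM1 62.8 CPM in HCC1954. COL1A1 made up most of the highest sum given next. The summed level of the 8 such genes ran from 8.63 to 348 CPM in EV, from 9.35 to 409 CPM in SIVA-WT and from 7.63 to 506 CPM in SIVA-D160N. Their part in the results below was not tested. FOSL1P1, a pseudogene copy of FOSL1 that could share its reads, had at most 3 counts in any library. In these bulk libraries, fewer cells with a transcript and less of it per cell cannot be told apart.

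The first comparison asked how the 4 lines differ in their AP-1 genes, whatever the vector. Levels are counts scaled to a common library size (CPM) by edgeR's TMM method, and the 3 libraries of a line gave its spread (n = 3). By line mean, FOS and FOSB were highest in HCC1954, and FOSL1 was high in MDA-MB-231 and OVCAR8. JUNB was high in HCC1954 and SKOV3, and JUN was nearly level. In EV, SKOV3 held more than HCC1954 of both FOS (137 against 107 CPM) and FOSB (97.0 against 15.9 CPM). In SIVA-WT and in SIVA-D160N, HCC1954 held more of both. A pair of lines was counted as different at an FDR (Benjamini-Hochberg adjusted p) under 0.05 in edgeR's quasi-likelihood test. Of the 42 combinations of 7 members and 6 pairs of lines 24 passed, against 68.8% of such combinations over all genes tested. By pair, 5 members passed for HCC1954 vs MDA-MB-231 (70.8% of all genes), 2 for OVCAR8 vs MDA-MB-231 (64.1%), 5 for SKOV3 vs MDA-MB-231 (68.5%), 6 for OVCAR8 vs HCC1954 (70.5%), 2 for SKOV3 vs HCC1954 (68.9%) and 4 for SKOV3 vs OVCAR8 (70.2%).

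**Figure D1:**
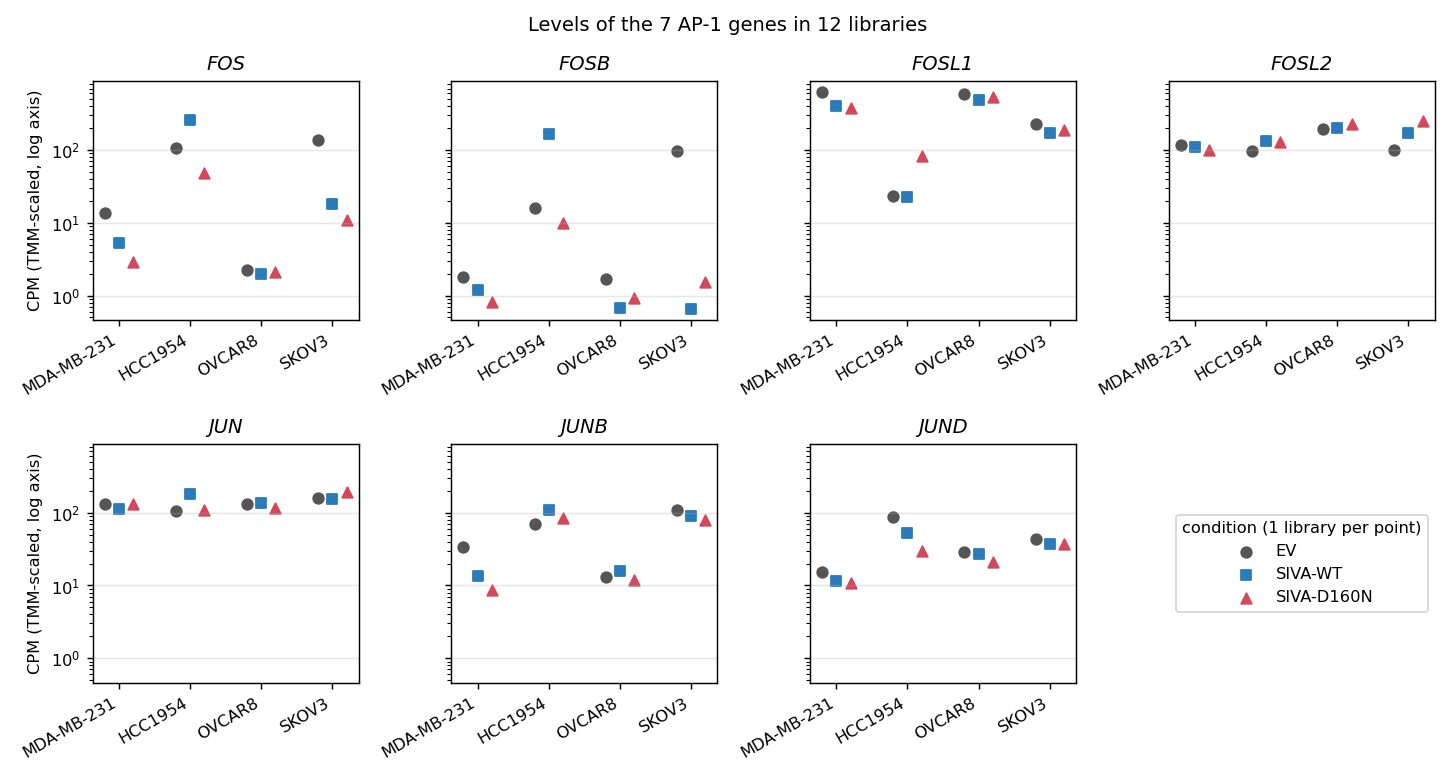
Level of each AP-1 gene in CPM (log axis) in the 4 lines, with 1 point per library and the condition given by colour and shape. JUN points lie between 105 and 194 CPM in every library, while FOS and FOSB points spread over more than 100-fold between libraries.

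FOS, the founding member, ranged from 47.8 to 263 CPM in HCC1954, from 11.0 to 137 CPM in SKOV3, from 2.89 to 13.5 CPM in MDA-MB-231 and from 1.97 to 2.28 CPM in OVCAR8. The fitted level was 22.2 times higher in HCC1954 than in MDA-MB-231 (log2 difference 4.47, SE 0.73, FDR 2.1e-04). OVCAR8 stood last, although its FOS level did not pass the test against MDA-MB-231 (FDR 0.113), and the other 5 pairs passed. FOSB followed the same order of lines, with 10.0 to 164 CPM in HCC1954, 0.650 to 97.0 CPM in SKOV3, 0.826 to 1.77 CPM in MDA-MB-231 and 0.683 to 1.70 CPM in OVCAR8. Its spread within HCC1954 and SKOV3 was wide. Only HCC1954 against MDA-MB-231 (FDR 0.00901) and against OVCAR8 (FDR 0.00899) passed for FOSB, and none of the neighbours in the order did. For FOSB, limma-voom gave 1 pair, DESeq2 gave 4, and leaving out a condition gave 3 or 4.

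FOSL1 showed the opposite order. It ranged from 493 to 584 CPM in OVCAR8, from 382 to 629 CPM in MDA-MB-231, from 174 to 225 CPM in SKOV3 and from 22.6 to 82.4 CPM in HCC1954. Its fitted level was 11.9 times lower in HCC1954 than in MDA-MB-231 (log2 difference -3.58, SE 0.42, FDR 1.6e-05). MDA-MB-231 and OVCAR8 did not differ beyond their spread (FDR 0.689), while SKOV3 was apart from MDA-MB-231 (FDR 0.0109) and from HCC1954 (FDR 3.5e-04). FOSL2 was far more even, from 98.1 CPM in the lowest library to 247 CPM in the highest. OVCAR8 had 1.87 times the FOSL2 level of MDA-MB-231 (log2 difference 0.90, SE 0.21, FDR 0.00332), and no neighbours in its order differed beyond their spread.

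Among the JUN genes, JUN itself passed in 0 of 6 pairs, and 3.53% of all genes tested had no pair of lines that passed. Its levels ran from 105 CPM in HCC1954 EV to 194 CPM in SKOV3 SIVA-D160N, and the lowest unadjusted p, for SKOV3 against MDA-MB-231, was 0.0516, so 0 pairs had an unadjusted p under 0.05. DESeq2 gave 0 pairs and limma-voom gave 0 pairs at the same FDR. JUN passed in 3 pairs when all genes with at least 1 count were fitted, and in 2 when the SIVA-WT libraries were left out. JUNB formed a high pair of lines, SKOV3 with 79.1 to 108 CPM and HCC1954 with 71.0 to 110 CPM, and a low pair, MDA-MB-231 with 8.53 to 34.2 CPM and OVCAR8 with 12.01 to 16.0 CPM. Each high line differed from each low line in JUNB, with log2 differences between 2.36 and 2.74 in size. The test did not separate HCC1954 from SKOV3 (FDR 0.938) or MDA-MB-231 from OVCAR8 (FDR 0.403). JUND was highest in HCC1954, at 29.4 to 87.2 CPM, then in SKOV3 at 36.8 to 43.9 CPM, in OVCAR8 at 20.9 to 29.0 CPM and in MDA-MB-231 at 10.6 to 15.2 CPM. Its HCC1954 and SKOV3 levels did not differ beyond their spread (FDR 0.0956), and the other 5 pairs passed.

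To compare one gene with another, CPM was divided by the length of each gene's merged exons, which gave CPM per kilobase. FOSL1 made up most of the AP-1 transcripts in 2 lines, with 78.1% ± 1.67 (SD, n = 3 libraries) of the summed level per length in MDA-MB-231 and 76.8% ± 1.90 in OVCAR8. In SKOV3 it was still first, with 38.7% ± 1.18, followed by JUNB with 18.9% ± 2.12 and JUN with 17.7% ± 3.71. HCC1954 had no such leader. There JUNB held 23.5% ± 2.99 of the sum, FOS 19.2% ± 10.3, JUN 17.4% ± 0.833, JUND 14.8% ± 9.50 and FOSL1 12.4% ± 11.7. The spread of the FOS, JUND and FOSL1 shares in HCC1954 was as wide as the gaps between them.

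The 4 FOS genes together held 82.2% to 86.5% of the sum per length in MDA-MB-231 and OVCAR8, 52.4% to 60.7% in SKOV3 and 35.7% to 50.9% in HCC1954. Per length, JUN was nearly the same in each line, with 46.6 ± 5.98 CPM per kilobase in SKOV3, 36.5 ± 12.1 in HCC1954, 35.4 ± 3.08 in OVCAR8 and 34.8 ± 3.34 in MDA-MB-231. FOSL1 per length ran from 22.7 ± 18.2 CPM per kilobase in HCC1954 to 285 ± 24.1 in OVCAR8. The summed level of all 7 genes was lower in both transfectants than in EV in MDA-MB-231 (418 against 276 and 264 CPM per kilobase, EV, SIVA-WT and SIVA-D160N), in OVCAR8 (396 against 350 and 364) and in SKOV3 (319 against 233 and 254). In HCC1954 the SIVA-WT library had the highest sum, 280 CPM per kilobase, against 176 in EV and 170 in SIVA-D160N.

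**Figure D2:**
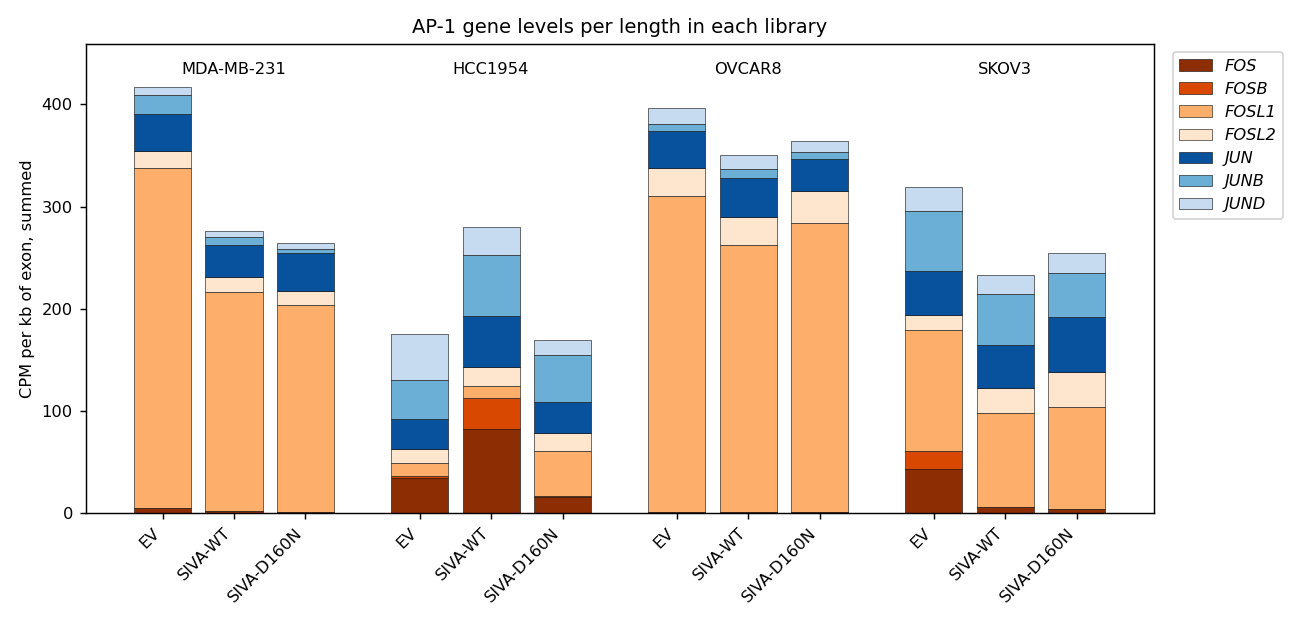
Stacked levels of the 7 AP-1 genes in CPM per kilobase of exon for each of the 12 libraries, grouped by line, with FOS genes in orange shades and JUN genes in blue shades. FOSL1 fills most of each bar in MDA-MB-231 and OVCAR8, and the FOS segment is large in HCC1954 and in SKOV3 EV.

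The main comparison asked what SIVA-D160N cells had in place of the EV pattern. FOS, FOSB and JUND were lower in SIVA-D160N than in EV in all 4 lines, by a fitted log2 change of -2.16, -3.29 and -0.69. No member passed the thresholds in edgeR's quasi-likelihood test (FDR under 0.05 and an absolute log2 change of at least 1.5), which 0.00581% of all genes tested did. At an unadjusted p under 0.05 there were 2 members, FOS and JUND, against 14.2% of all genes. DESeq2 and limma-voom called 0 members as well, among 12 and 27 genes in all. At an unadjusted p under 0.05 they had 5 and 3 members, against 2320 and 2836 of the 17211 genes tested. One sign in all 4 lines was found for 3 members, and for 16% of all genes. The median log2 change of the 7 was -0.62, against -0.01 over all genes. When all 34909 genes with at least 1 count were fitted, FOS (FDR 4.6e-05) and FOSB (FDR 0.0120) passed the thresholds, among 172 genes in all.

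**Figure D3:**
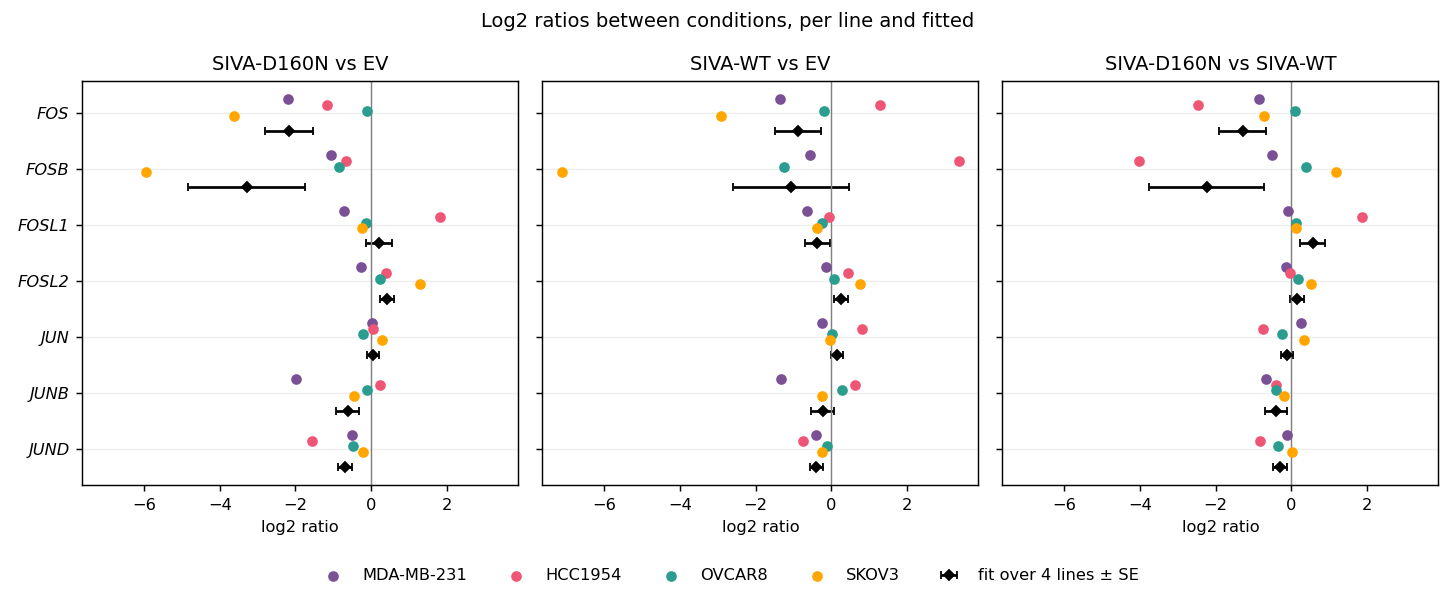
Log2 ratios of each AP-1 gene within each line (coloured points) and the change fitted over the 4 lines with its SE (black diamonds), for the 3 comparisons of conditions. FOS, FOSB and JUND lie left of 0 in all 4 lines for SIVA-D160N vs EV, while FOSB in SIVA-WT vs EV spreads from -7.12 in SKOV3 to 3.37 in HCC1954.

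FOS stood at 13.5, 107, 2.28 and 137 CPM in the EV libraries of MDA-MB-231, HCC1954, OVCAR8 and SKOV3. In SIVA-WT it stood at 5.28, 263, 1.97 and 18.2 CPM, and in SIVA-D160N at 2.89, 47.8, 2.12 and 11.0 CPM, in the same order of lines. SKOV3 had the widest gap between EV and SIVA-D160N and OVCAR8 almost none, and the ranges of the conditions overlapped because the lines differ so much. Within lines, FOS in SIVA-D160N was 12.5-fold lower than in EV in SKOV3 (95% counting interval 11.3 to 13.8), 4.68-fold lower in MDA-MB-231 (3.84 to 5.75) and 2.25-fold lower in HCC1954 (2.12 to 2.38). In OVCAR8 the difference was 1.07-fold with an interval of 0.781 to 1.48, from 83 and 81 counts, so no difference was detectable at this depth. Such intervals cover counting error only. The fitted FOS change was -2.16 (SE 0.63, unadjusted p 0.00571, FDR 0.209 in edgeR's test). Without the SKOV3 EV library it was -1.24 and without all of SKOV3 -1.34, both in the same direction. FOS also belongs to a pathway table that the study drew from these samples. That table was drawn from genes the study called different between SIVA-D160N and EV, at the same FDR and fold thresholds as here. FOS did not pass them in the main fit here, where fewer genes passed in all than in the study. The cause of this difference was not tested. The study's table gives no direction for FOS, and it rests on the same samples, so it is not independent evidence.

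FOSB stood at 1.77, 15.9, 1.70 and 97.0 CPM in the EV libraries of MDA-MB-231, HCC1954, OVCAR8 and SKOV3. The SIVA-WT libraries held 1.19, 164, 0.683 and 0.650 CPM, and the SIVA-D160N libraries 0.826, 10.0, 0.916 and 1.53 CPM. Only 2 libraries were high, SKOV3 EV with 3661 counts and HCC1954 SIVA-WT with 7074, and the remaining 10 held between 26 and 661 counts. In SKOV3, FOSB was 63.5-fold lower in SIVA-D160N than in EV (95% counting interval 49.4 to 83.0) and 149-fold lower in SIVA-WT (104 to 223). The fold in the other lines was smaller, 2.14 in MDA-MB-231 (1.42 to 3.30), 1.86 in OVCAR8 (1.21 to 2.89) and 1.58 in HCC1954 (1.39 to 1.81), each lower in SIVA-D160N than in EV. The fitted FOSB change was -3.29 (SE 1.54, FDR 0.364 in edgeR's test), and without the SKOV3 EV library it was -0.56 (unadjusted p 0.593 in the same model).

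FOSL1 stood at 629, 23.4, 584 and 225 CPM in EV, in the order MDA-MB-231, HCC1954, OVCAR8 and SKOV3. It stood at 405, 22.6, 493 and 174 CPM in SIVA-WT and at 382, 82.4, 534 and 189 CPM in SIVA-D160N. HCC1954, the line with the least FOSL1, was the only line of the 4 with more of it in SIVA-D160N than in EV, by 3.53-fold (95% counting interval 3.28 to 3.80). In MDA-MB-231, FOSL1 was 1.65-fold lower in SIVA-D160N (1.62 to 1.68), in SKOV3 1.19-fold lower (1.15 to 1.23) and in OVCAR8 1.09-fold lower (1.074 to 1.116). The fitted change over the 4 lines was 0.21 (SE 0.34, FDR 0.821 in edgeR's test), and without HCC1954 it was -0.37 (FDR 0.429).

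FOSL2 stood at 118, 98.1, 192 and 102 CPM in EV, at 108, 133, 201 and 174 CPM in SIVA-WT and at 99.1, 130, 226 and 247 CPM in SIVA-D160N. It was the FOS gene whose fitted change was positive with the smallest error, 0.41 (SE 0.19, FDR 0.355 in edgeR's test). SKOV3 had 2.43-fold more FOSL2 in SIVA-D160N than in EV (95% counting interval 2.34 to 2.53), and MDA-MB-231 alone had less. Thus in SKOV3 FOS and FOSB were lower and FOSL2 was higher in the SIVA-D160N library than in EV. The promoters of these 3 genes and of JUND, which was 1.16-fold lower in that library, hold the TGACGT core shown above. Its part in these ratios was not tested. Without the SKOV3 libraries the fitted FOSL2 change was 0.12.

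JUN stood at 132, 105, 133 and 158 CPM in EV, at 112, 183, 136 and 155 CPM in SIVA-WT and at 134, 109, 116 and 194 CPM in SIVA-D160N. Its fitted change between SIVA-D160N and EV was 0.05 (SE 0.17, FDR 0.929 in edgeR's test), and the widest difference within a line was 1.23-fold, in SKOV3 (95% counting interval 1.19 to 1.27). JUNB stood at 34.2, 71.0, 13.0 and 108 CPM in EV, at 13.6, 110, 16.0 and 90.4 CPM in SIVA-WT and at 8.53, 83.6, 12.01 and 79.1 CPM in SIVA-D160N. MDA-MB-231 stood out for JUNB, with 4.02-fold less in SIVA-D160N than in EV (95% counting interval 3.57 to 4.52), while HCC1954 had 1.18-fold more (1.118 to 1.239). The fitted JUNB change was -0.62 (SE 0.30, FDR 0.383 in edgeR's test), and without the MDA-MB-231 libraries it was -0.12.

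JUND, the member made in resting cells, stood at 15.2, 87.2, 29.0 and 43.9 CPM in EV, at 11.6, 52.2, 26.8 and 36.8 CPM in SIVA-WT and at 10.6, 29.4, 20.9 and 37.7 CPM in SIVA-D160N. EV was the highest of the 3 libraries in every line. The gap between EV and SIVA-D160N was widest in HCC1954, where JUND was 2.97-fold lower (95% counting interval 2.77 to 3.18), and ran from 1.16-fold to 1.43-fold in the other lines. The fitted change was -0.69 (SE 0.18, unadjusted p 0.00283, FDR 0.175 in edgeR's test). DESeq2 gave JUND an FDR of 0.0291 at a log2 change of -0.69, which is under the fold threshold. Without HCC1954 the JUND change was -0.40, in the same direction.

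Counted within lines, 3 of the 7 members differed by 2-fold or more in SIVA-D160N vs EV in MDA-MB-231 (FOS, FOSB and JUNB), 3 in HCC1954 (FOS, FOSL1 and JUND), 0 in OVCAR8 and 3 in SKOV3 (FOS, FOSB and FOSL2). Over all genes tested the same was true of 10.2% in HCC1954, 8.74% in SKOV3, 6.82% in MDA-MB-231 and 3.51% in OVCAR8. FOS was the only member on the list of 3 lines. With 1 library per condition these counts carry no test, and an exact sign-flip test of 4 lines cannot go below a two-sided p of 0.125.

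SIVA-WT was set against EV in the same way, with the same EV libraries. No member passed the thresholds in edgeR's test, and neither did any other gene (0%). JUND was the 1 member at an unadjusted p under 0.05 (log2 change -0.39, p 0.0490 in edgeR's test), against 2.54% of all genes. DESeq2 gave 1 member at an unadjusted p under 0.05 and limma-voom 0, against 389 and 555 of the 17211 genes tested. Neither called a member. FOSL1 and JUND were lower in SIVA-WT in all 4 lines, which 9.88% of all genes matched with one sign. For FOSL1 in HCC1954 that sign came from library scaling alone, since both libraries held 974 counts. JUND in OVCAR8 had 1020 counts in SIVA-WT and 1060 in EV. In both cases the 95% counting interval included no difference, so no fall was detectable there. FOS and FOSB went opposite ways in HCC1954 and SKOV3. In HCC1954, SIVA-WT had 2.45-fold more FOS than EV (95% counting interval 2.36 to 2.53) and 10.4-fold more FOSB (9.56 to 11.2), while in SKOV3 it had 7.50-fold less FOS (6.96 to 8.08). At least 2-fold differences were found for 2 members in MDA-MB-231 (FOS and JUNB), 2 in HCC1954 (FOS and FOSB), 1 in OVCAR8 (FOSB) and 2 in SKOV3 (FOS and FOSB). The shares of all genes were 4.57%, 4.49%, 3.16% and 5.79% in these lines.

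SIVA-D160N was then set against SIVA-WT, the comparison of the variant with the normal protein. No member was called by edgeR, DESeq2 or limma-voom, and 0% of all genes were called by edgeR. At an unadjusted p under 0.05 there were 0 members in edgeR's test, against 6.88% of all genes. DESeq2 had 0 and limma-voom 1 at that p, against 1064 and 1437 of the 17211 genes tested. JUNB was lower in SIVA-D160N than in SIVA-WT in all 4 lines, with a fitted change of -0.39, while 23.8% of all genes kept one sign. The members differed chiefly in HCC1954, where FOS was 5.49-fold lower (95% counting interval 5.22 to 5.79), FOSB 16.4-fold lower (14.7 to 18.3) and FOSL1 3.64-fold higher (3.39 to 3.92) in SIVA-D160N than in SIVA-WT. These were the 3 members past 2-fold in HCC1954, against 8.78% of all genes. In SKOV3 FOSB was past 2-fold, higher in SIVA-D160N by 2.35-fold (1.49 to 3.79), against 3.09% of all genes. In MDA-MB-231 and OVCAR8 no member was, against 3.83% and 2.78%.

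Whether the breast and ovarian lines responded differently was tested with an interaction term. No member passed an FDR under 0.05 in any of the 3 comparisons, and the share of all genes that did was 0.00581% for SIVA-D160N vs EV and 0% for both others. At an unadjusted p under 0.05 the counts were 0 members for SIVA-D160N vs EV (5.06% of all genes), 1 for SIVA-WT vs EV (1.78%) and 0 for SIVA-D160N vs SIVA-WT (2.24%). FOSB had the lowest unadjusted p among the members, for SIVA-WT vs EV. Its mean log2 ratio was 1.41 in the breast lines and -4.18 in the ovarian lines, and the fitted difference was -7.24 (SE 2.01, unadjusted p 0.00567, FDR 1.00 in edgeR's test). The breast mean hides a split, since FOSB was higher in SIVA-WT in HCC1954 and lower in MDA-MB-231.

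The other immediate-early genes were described next, since FOS and FOSB belong to this class. All 26 genes of this list were tested. None was called in any of the 3 comparisons by edgeR. In SIVA-D160N vs EV, 21 of the 26 had a fitted change below 0, against 51.7% of all genes, and the median was -0.32 against -0.01 over all genes. HCC1954 differed in sign: the median log2 ratio was 0.24 there, while OVCAR8 had -0.09, SKOV3 -0.33 and MDA-MB-231 -0.74. In HCC1954, 3 of the 26 genes were at least 2-fold higher and 1 lower, against 4.73% and 5.51% of all genes. MDA-MB-231 had 1 higher and 9 lower, against 2.52% and 4.3%. SKOV3 had 0 higher and 10 lower, against 2.7% and 6.05%, and OVCAR8 had 0 of either. Of the 26, 4 were lower at an unadjusted p under 0.05 and 0 were higher, while 7.68% of all genes were lower at that p. EGR1, a zinc finger factor induced with FOS by growth factors, stood at 323, 75.0, 14.97 and 754 CPM in EV, at 49.2, 188, 13.7 and 210 CPM in SIVA-WT and at 13.3, 75.2, 18.7 and 145 CPM in SIVA-D160N, in the order MDA-MB-231, HCC1954, OVCAR8 and SKOV3. As for FOS, EV was the highest of the 3 libraries for EGR1 in MDA-MB-231 and SKOV3, and SIVA-WT was the highest in HCC1954. The fitted EGR1 change was -1.86 (unadjusted p 0.0284 in edgeR's test). EGR3 (-2.87, unadjusted p 0.0113) and KLF2 (-0.57, unadjusted p 0.0160) were also among these 4, and EGR3 had at most 19 counts outside SKOV3. The remaining one, IER2, was lower in all 4 lines (-0.55, unadjusted p 0.00929). In SIVA-WT vs EV, PPP1R15A, a stress-induced phosphatase subunit, had a change of -0.79 (unadjusted p 0.0412) and KLF2 one of -0.52 (unadjusted p 0.0261). In SIVA-D160N vs SIVA-WT, ZFP36L1, an RNA decay factor, had one of -0.34 (unadjusted p 0.0358).

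Which library was highest depended on the line, for the AP-1 genes and the immediate-early genes alike. In MDA-MB-231, EV held the highest level of 6 of the 7 AP-1 genes and of 22 of the 26 immediate-early genes, against 43.3% of all genes. In SKOV3, EV held the highest level of 5 AP-1 genes and 17 immediate-early genes, against 40% of all genes. In HCC1954, SIVA-WT held the highest level of 5 AP-1 genes and 15 immediate-early genes, against 31.6%. In OVCAR8, EV was highest for 4 and 14 of them, against 40.7% of all genes. None of the 26 genes differed by 2-fold there between SIVA-D160N and EV, while FOSB was 2.49-fold lower in SIVA-WT than in EV (95% counting interval 1.55 to 4.10).

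**Figure D4:**
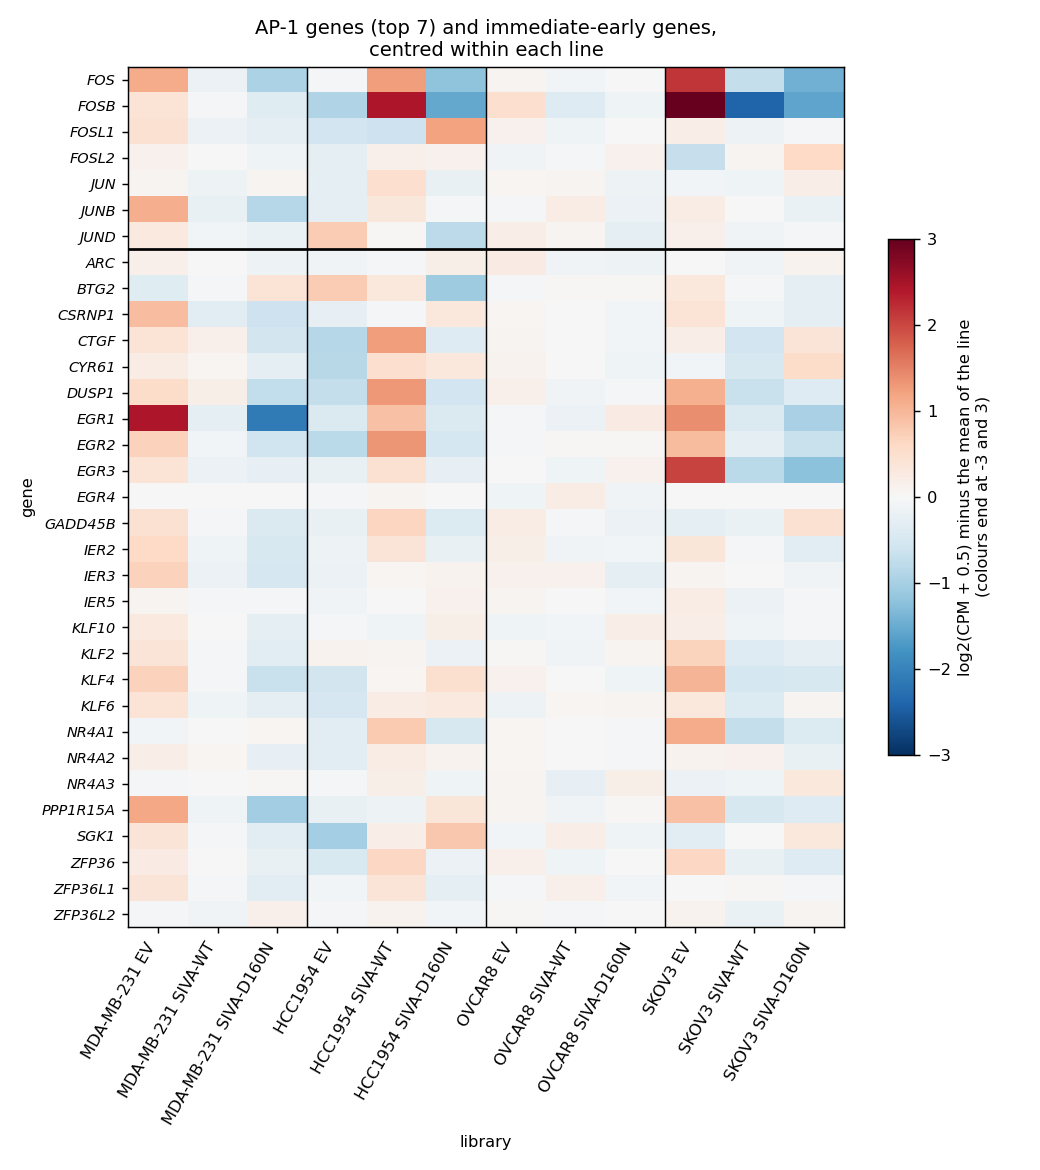
Heat map of log2(CPM + 0.5) minus the mean of the line for the 7 AP-1 genes and 26 immediate-early genes (rows) in 12 libraries (columns), with red above and blue below the line's mean and colours ending at 3 in size. The MDA-MB-231 EV, HCC1954 SIVA-WT and SKOV3 EV columns are mostly red, and the OVCAR8 columns are pale.

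Of the genes that act on AP-1 from upstream, which are kinases and transcription factors of FOS and JUN together with ubiquitin ligase parts that remove JUN, all 25 were tested and none was called in any comparison by edgeR. Their median change in SIVA-D160N vs EV was 0.01, and none differed by 2-fold in any line in that comparison or in SIVA-WT vs EV. Over all genes tested, 3.51% to 10.2% per line did in the first comparison and 3.16% to 5.79% in the second. In SIVA-D160N vs EV, 3 of the 25 were higher at an unadjusted p under 0.05 in edgeR's test and 0 lower, against 14.2% of all genes at that p. MKL1 and MKL2, coactivators of the serum response factor that binds the FOS promoter, had changes of 0.33 (unadjusted p 0.0446) and 0.37 (unadjusted p 0.0324). Transcript levels do not measure the activity of these kinases.

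The leucine zipper partners of AP-1 were tested for 11 of 12 genes, and none was called by edgeR. Their median change in SIVA-D160N vs EV was -0.22, with 9 of 11 fitted below 0 against 51.7% of all genes. By line, HCC1954 had a median of 0.25, OVCAR8 -0.01, SKOV3 -0.25 and MDA-MB-231 -0.65. MAFG, a small MAF protein that pairs with FOS, was lower in all 4 lines (-0.30, unadjusted p 0.0207), and its change in SIVA-WT vs EV was -0.25 (unadjusted p 0.0409). MAF had an unadjusted p of 0.0191 in SIVA-WT vs EV. It was at 0 counts in all MDA-MB-231 and OVCAR8 libraries, at 136 counts in HCC1954 EV and 398 in HCC1954 SIVA-WT, and at 0 and 14 counts in the same libraries of SKOV3.

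Genes known as AP-1 targets did not move one way across the lines. Of 23 such genes 22 were tested and none was called in any comparison by edgeR, and in SIVA-D160N vs EV 11 were fitted higher and 11 lower, with a median of 0.00. The lines pulled apart. The median log2 ratio of the targets was 1.02 in HCC1954, against -0.07 in OVCAR8, -0.31 in SKOV3 and -0.71 in MDA-MB-231. In HCC1954, the 1 line with more FOSL1 in SIVA-D160N, 11 of the 22 targets were at least 2-fold higher and 0 were 2-fold lower, against 4.73% and 5.51% of all genes. In MDA-MB-231, where FOSL1 was 1.65-fold lower, 9 targets were at least 2-fold lower and 0 higher, against 4.3% and 2.52% of all genes. The part of FOSL1 or of any other member in these ratios was not tested. Examples, chosen after their values were seen, were AREG and IL6. AREG, an EGF receptor ligand, stood at 8.23 CPM in HCC1954 EV, 9.61 in SIVA-WT and 42.2 in SIVA-D160N, and at 9.62, 5.66 and 2.33 CPM in the same conditions of MDA-MB-231. IL6, a cytokine, stood at 0.288, 1.60 and 3.17 CPM in HCC1954 and at 1.86, 0.505 and 0.413 CPM in MDA-MB-231. In OVCAR8 and SKOV3 the log2 ratios of SIVA-D160N to EV were -0.22 and -0.35 for AREG and 0.21 and 0.15 for IL6. MMP10, a matrix metalloproteinase, was the 1 target at an unadjusted p under 0.05 in SIVA-D160N vs EV (-1.72, p 0.00518 in edgeR's test). It was lower in all 4 lines, though only SKOV3 held more than 16 counts of it, with 683 in EV, 448 in SIVA-WT and 175 in SIVA-D160N.

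Each member was also compared with all 17210 other tested genes by Pearson's correlation of log2 CPM over the 12 libraries, after each line's mean was taken off. The libraries share lines and conditions, so these values describe likeness and carry no p. For FOS the nearest genes were CNIH3 (0.98), BEAN1 (0.97) and KIAA1407 (0.96). FOSB was nearest to NR4A1 (0.97), an orphan nuclear receptor that is itself an immediate-early gene, and then to CLGN (0.96) and ATP6AP1L (0.95). NR4A1 stood at 10.6, 23.5 and 9.48 CPM in the EV, SIVA-WT and SIVA-D160N libraries of HCC1954, and at 10.8, 2.69 and 3.42 CPM in those of SKOV3. FOSL1 was nearest to PLEKHG4B (0.99), DVL1 (0.96) and ADRA1B (0.96), and FOSL2 to FAM101B (0.96), FLRT2 (0.96) and ADAMTS5 (0.95).

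In the JUN group, JUN was nearest to AP002954.3 (0.93), PTGER2 (0.92) and DEPDC1-AS1 (0.91). JUNB was nearest to PARP11 (0.96), the kinase gene PTK6 (0.96) and ZC3H12A (0.96), which encodes an RNase. JUND was nearest to STARD10 (0.97), the lysosomal protease gene CTSD (0.97) and BST2 (0.97). Among the members themselves, FOS and FOSB were the most alike within lines (0.89), FOS and JUNB followed (0.63), and FOSL1 with JUND, FOS with FOSL2 and FOSB with FOSL2 ran opposite (-0.58 each). Across the libraries without taking off the line's mean, FOS went with JUNB (0.88) and against FOSL1 (-0.83), which restates the differences between lines given above.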

How the data were processed

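Poly(A) RNA of 12 libraries was sequenced with a stranded protocol. The authors aligned the reads to GRCh38 with STAR (version 2.5.3a per the submitters' processing notes) and deposited gene counts without normalization for 57187 genes. The annotation release is not given in the sources used here. The deposited CPM table was not used. The name of every column gave its library, with 0 left over. Totals ran from 35791455 to 45890398, so that 3 counts, the limit that a count of 0 allows, are 0.0654 to 0.0838 CPM.

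The fit was made with edgeR 4.0.16 under R 4.3.3 (quasi-likelihood, TMM, filterByExpr by condition) with terms for cell line and condition. SE was the absolute log2 change divided by the square root of F. Within-line log2 ratios used a prior count of 2. Fold intervals within a line are exact 95% intervals for counting error. The cell line was the replicate block, since each trio of libraries came from one line. Libraries of a line deviated together from the condition means (correlations of 0.929 to 0.968, against -0.447 to -0.191 between lines). Taking off means over the 4 lines pushes correlations between lines below 0, so these values did not test the choice of block. Nothing says that the libraries came from separate cultures, so p-values measure only the spread between these samples.

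Lengths were those of merged exons in GENCODE v44 mapped to GRCh37, a choice made after seeing the data, used for lengths only. Promoters came from RefSeq. The fit was tested on simulated data. DESeq2 1.42.0, limma-voom (limma 3.58.1), other filters and left-out libraries were alternatives. The members and gene lists were chosen with earlier results of these data known. The genes named are the 7 members, SIVA1, in each list the called genes and up to 3 rises and 3 falls per comparison at an unadjusted p under 0.05, and the 3 genes most like each member. The values of 1 gene that this rule names are not reported here. IER2, AREG and IL6 were named after their values were seen, as were the NR4A1 levels. CYR61 and CTGF are older symbols of CCN1 and CCN2, and MKL1 and MKL2 of MRTFA and MRTFB. Python 3.11.15 with matplotlib 3.10.9 drew the figures.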

Additional observations from a re-analysis of the deposited data

Results flagged for a closer look

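Within each condition, and within each comparison, the 4 lines were checked for 1 line far from the other lines by Dixon's test, over 42 sets of values of the 7 members. It marked 3 sets, where chance would mark about 2.1. FOSB in the SIVA-WT libraries was marked for HCC1954, at a log2 CPM of 7.36. FOSB in SIVA-D160N vs EV was marked for SKOV3, at a log2 ratio of -5.94. FOSL1 in SIVA-D160N vs SIVA-WT was marked for HCC1954, at a log2 ratio of 1.86. Of 21 tests of a difference between breast and ovarian lines, none passed an FDR under 0.05 in edgeR's test.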

How the results depend on the processing

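The values checked were counts of members called or past 2-fold, medians of the gene lists and shares per length. Under alternatives 167 of them stayed within their limits and 2 moved. Many of the counts called were 0 under every setting. With all genes of at least 1 count, 2 members in place of 0 were called in SIVA-D160N vs EV, and with the longest transcript as length the JUNB share in HCC1954 was 20.4%. The cause was not tested. FOS and JUND were lower in SIVA-D160N than in EV under all 23 settings, with log2 changes from -2.65 to -1.24 and from -0.86 to -0.40, and at an unadjusted p under 0.05 in 22 of them. FOSB was lower in all 23 as well, from -4.39 to -0.56. Without the replicate block, 0 members were called in any comparison, the unadjusted p of FOS in SIVA-D160N vs EV was 0.240 in edgeR's test, FOSL1 in that comparison turned to -0.30, and FOS, FOSB and JUNB in SIVA-WT vs EV turned to 0.15, 0.52 and 0.026. limma-voom turned FOSB in SIVA-WT vs EV to 0.059. With all genes of at least 1 count, JUN turned to -0.0024 for HCC1954 vs MDA-MB-231 and to 0.0100 for OVCAR8 vs HCC1954. Between lines, 22 to 31 of the 42 combinations passed under the alternatives. The share of all genes that passed between lines was not counted under these alternatives, which also limits the FOSB and JUN pair counts above.

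Leaving out a library or a line turned these log2 changes, none of which passed the thresholds before. FOSB in SIVA-WT vs EV ran from -3.61 to 1.27, JUNB from -0.49 to 0.25, JUN from -0.074 to 0.28 and FOS from -1.78 to 0.036. In SIVA-D160N vs EV, FOSL1 ran from -0.37 to 0.53 and JUN from -0.075 to 0.15. In SIVA-D160N vs SIVA-WT, FOSB ran from -3.02 to 0.67, JUN from -0.26 to 0.12 and FOSL2 from -0.075 to 0.30. Leaving out a condition turned JUN for HCC1954 vs MDA-MB-231 (-0.30 to 0.24), OVCAR8 vs HCC1954 (-0.20 to 0.21) and OVCAR8 vs MDA-MB-231 (-0.092 to 0.14), JUNB for OVCAR8 vs MDA-MB-231 (-0.68 to 0.37) and SKOV3 vs HCC1954 (-0.17 to 0.20), and FOSB for OVCAR8 vs MDA-MB-231 (-0.36 to 0.062) and SKOV3 vs HCC1954 (-5.68 to 0.93). FOS in OVCAR8 had at most 83 counts and FOSB there at most 62, which limits those ratios.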
